A study of Mus musculus with 371 samples.

Results

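CD4 T cells that had infiltrated B16F10 melanoma tumours were compared between mice lacking the interleukin-27 receptor gene Il27ra (KO) and wild-type (WT) mice. The cells were chosen from the table by the sort and genotype in their names. Columns named as populations were left out, as were cells with fewer than 1000 genes at 1 FPKM or above (read fragments scaled by transcript length and library size). Of the 350 single T cells that passed the same filter in the whole data set, this left 85 of 94 WT cells and 89 of 93 KO cells. The others, 90 WT and 86 KO cells, came from the CD8 sort. All mice were of the C57BL/6 strain and carried the tumour. B16F10 is a transplantable mouse melanoma line. The labels give no age, no sex and no account of how the Il27ra allele was made or in which cells it was absent. Their treatment text names CD8 T cells alone, while the cell names place these cells in a CD4 sort. The cell names give each genotype 1 animal word and the same number 3. Each genotype was therefore read as 1 sorted pool of cells, and genotype and pool cannot be told apart. Names of the CD4 sort also carry the tag p2 and those of the CD8 sort p1, and the labels do not explain this tag. Sort and tag cannot be told apart either. Cells of 1 pool are not replicates of a genotype, so no test between the genotypes was made, and every difference below is a description of these 2 pools.

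Interleukin-27 is a cytokine made mainly by myeloid cells. It binds a receptor made of the alpha chain Il27ra and the shared chain gp130 (Il6st), whose associated kinases JAK1, JAK2 and TYK2 phosphorylate transcription factors of the STAT family. It induces a set of genes that overlaps the interferon response and, through STAT3, the feedback inhibitor Socs3. In CD4 T cells it is known for restraining inflammatory helper programmes, for inducing interleukin-10 and inhibitory receptors, and for shaping regulatory T cells, which are marked by the transcription factor Foxp3.

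The promoters below frame the results. Socs3 stood at the bottom of the ranked genes, Igtp and the Tgtp genes belong to the interferon-induced GTPases, which were lower together, and Nfkbia was among the genes that were higher in cells labelled KO. The sequences are the 250 bases before the annotated start, 5′ to 3′ on the gene's strand, from RefSeq on GRCm38.p6, the assembly behind the mm10 build of the deposited values. Capitals mark a STAT-type GAS element (TTCNNNGAA, which is its own reverse complement), an interferon-type ISRE element (GAAANNGAAA on either strand) or, in Nfkbia, an NF-kB motif. Socs3 lies at chr11:117966079-117970336, and its 250 bases at chr11:117969367-117969616 (minus strand). Those of Igtp lie at chr11:58199306-58199555 (plus strand) and those of Nfkbia at chr12:55492648-55492897 (minus strand).
Socs3: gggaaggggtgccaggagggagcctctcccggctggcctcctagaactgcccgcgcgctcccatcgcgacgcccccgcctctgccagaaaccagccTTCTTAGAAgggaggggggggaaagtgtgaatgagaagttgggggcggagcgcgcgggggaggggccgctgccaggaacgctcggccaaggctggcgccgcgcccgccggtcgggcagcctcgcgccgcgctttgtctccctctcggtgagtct
Igtp: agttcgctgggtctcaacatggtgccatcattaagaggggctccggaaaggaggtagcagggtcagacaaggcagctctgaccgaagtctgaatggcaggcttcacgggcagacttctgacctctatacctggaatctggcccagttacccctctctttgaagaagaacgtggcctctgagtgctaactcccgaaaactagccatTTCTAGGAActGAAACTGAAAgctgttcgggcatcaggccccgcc
Nfkbia: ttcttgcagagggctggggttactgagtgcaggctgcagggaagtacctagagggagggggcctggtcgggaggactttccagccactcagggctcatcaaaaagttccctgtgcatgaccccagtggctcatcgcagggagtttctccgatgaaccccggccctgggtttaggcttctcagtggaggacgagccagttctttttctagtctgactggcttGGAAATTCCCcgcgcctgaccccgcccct
In Socs3 the GAS match lay at -154 to -146 from the start, and in Nfkbia the NF-kB match lay at -29 to -20. Of 6 GTPase promoters on chromosome 11, 4 held a GAS match next to an ISRE match, and the 31 bases around it are shown for these 4 genes to compare its layout. Irgm1 had an ISRE match alone and Ifi47 neither.
Tgtp2: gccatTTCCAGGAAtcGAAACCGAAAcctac
Tgtp1: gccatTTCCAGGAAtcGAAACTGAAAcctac
Igtp: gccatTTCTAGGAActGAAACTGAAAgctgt
Irgm2: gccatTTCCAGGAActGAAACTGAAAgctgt
In each of these 4 genes, 2 bases separated the GAS match from the ISRE match. They lie at chr11:49064268-49064298 (Tgtp2, minus strand), chr11:48992309-48992339 (Tgtp1, minus), chr11:58199506-58199536 (Igtp, plus) and chr11:58214897-58214927 (Irgm2, plus). Of 32851 promoters of the same length in the table, 7.02% held a GAS match, 2.98% an ISRE match, 0.332% both and 7.25% the NF-kB motif. The 10 promoters found for 9 measured interferon-induced GTPase genes held a GAS match in 50% and an ISRE match in 80%. A match describes these letters only and is not evidence of binding.

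Most cells had the marker of their sort. Cd4 reached 1 FPKM in 87.1% of the WT group and 87.6% of the KO group, and a CD3 chain gene in 97.6% and 98.9%. No cell lacked both Cd4 and the CD3 genes. Cd8a or Cd8b1 reached 1 FPKM in 25.9% and 22.5% of cells and 10 FPKM in 7.06% and 8.99%. At least 2 markers of 1 other cell type reached 10 FPKM in 9 WT cells and 12 cells labelled KO. These lists covered 10 other cell types, and the highest sums were 127664 FPKM for MHC class II genes in a WT cell and 1138660 FPKM for haemoglobin and other erythroid genes in a cell labelled KO. The median summed level was 0 FPKM in both groups for macrophage, B cell, natural killer cell, fibroblast, endothelial and erythroid markers. For melanocyte and melanoma markers it was 6.4 FPKM in WT cells and 5.49 FPKM in cells labelled KO. For dendritic cell markers it was 0.17 and 0.52 FPKM, and for neutrophil markers 0.85 and 0.68 FPKM. No B cell marker was found in any WT cell. The median number of genes detected was 1661 in WT cells (range 1006 to 6688) and 1868 in cells labelled KO (1061 to 4733), and the cells just below the filter had 963 and 959. The part of this gap in detected genes in any difference below was not tested, and read counts were not used here. From the steps between low values, 1 read of a transcript of 2 kilobases was worth about 0.966 FPKM in both groups, so a share of cells with a gene includes cells with 1 read.

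Across all genes, more had a higher than a lower mean in CD4 cells labelled KO. A gene counted as measured if 20% or more of either group's cells had it, and its difference is the mean of log2(FPKM + 1) over cells labelled KO minus that over WT cells. Of 3864 measured genes, 9.91% had a difference of 1 or more and 0.983%, or 38 genes, a difference of -1 or less, and the median of all was 0.23. A difference above 0 was found for 66.1%. The imbalance was larger among genes of higher level. In the 966 genes with the highest level the median was 0.55 and 26% were at 1 or more, while in the 966 with the lowest level the median was 0.04 and 1.55% were. Cells were also weighted so that both groups had equal shares of cells in each of several broad ranges of detected genes. The groups could still differ within a range. With these weights 3.91% were at 1 or more, 2.56% at -1 or less, and the median of all genes was 0.0074. In cells with at least 2000 genes the shares were 10.1% and 10.97%, and from the log2 of mean FPKM they were 6.88% and 4.68%. Without the cells that carried markers of other cell types the shares were 12.03% and 0.854%, and without cells of more than 4000 genes they were 9.14% and 1.01%.

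**Figure D1:**
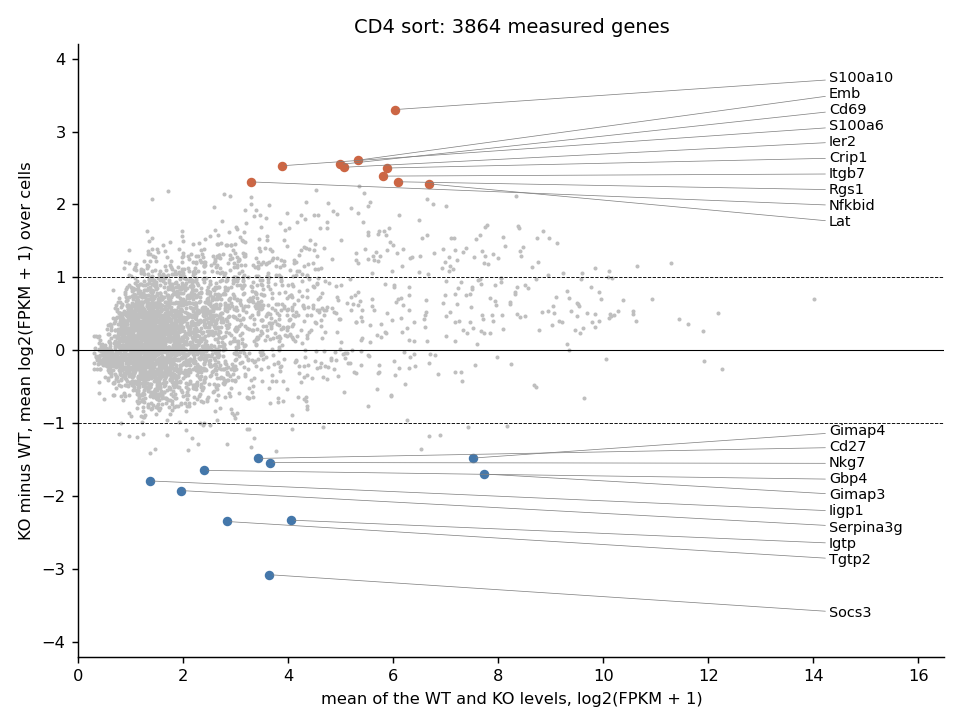
Difference between cells labelled KO and WT cells (vertical axis, mean log2(FPKM + 1) over cells) for each of the 3864 measured genes, against the mean of the 2 levels (horizontal axis). The 10 lowest and 10 highest ranked genes are named, from Socs3 at -3.07 to S100a10 at 3.30, and dashed lines mark -1 and 1.

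The higher and the lower genes differed in how their cells differed. Among the genes at 1 or more, the share of cells with the gene was larger in cells labelled KO by a median of 16 percentage points, and the level in the cells that had it was larger by a median of 0.22 on the log2 scale. Among the 38 genes at -1 or less, the share was smaller by a median of 14.6 points, written as -14.6, and the level where detected differed by a median of -0.83. The ratio of mean FPKM, KO over WT, had a median of 1.6 in the first set, 0.439 in the second and 1.08 over all measured genes. Of the 2 sets, 67 and 10 genes passed the filter through 1 group alone. The genes past either limit were chosen by this same difference, so these medians only describe them.

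Il27ra itself, at chr8:84030286-84042600, was detected in 43 of 85 WT cells (50.6%, 95% interval 39.5% to 61.6%) and 45 of the 89 labelled KO (50.6%, 39.8% to 61.3%). These exact Clopper-Pearson intervals, as all below, cover counting error only. Its level ran from 0 through a median of 7.46 to 843.9 FPKM in WT cells, and from 0 through 1.30 to 411.2 FPKM in cells labelled KO. The 2 ranges overlapped throughout. The table holds 1 value a gene, summed over its exons, so a deletion of some exons would not show. It therefore does not check the genotype, and the cells are called labelled KO. Il6st, the gp130 chain, differed by -0.62 (22.4% against 11.2% of cells), Jak1 by 0.75, Jak2 by 0.35 and Tyk2 by -0.14. No member of this list reached 1 in either direction.

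The STAT genes encode the transcription factors that carry cytokine signals to the nucleus. Stat3, which acts downstream of gp130, differed by -0.76 (70.6% against 64% of cells). Stat2, which serves type I interferon signals, differed by -0.43, and Stat6, which serves interleukin-4 signals, by -0.18. Stat4, Stat5a and Stat5b lay between -0.09 and 0.31.

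Socs3, the STAT3-induced inhibitor that binds gp130, stood at the bottom of all ranked genes at -3.07. WT cells ran from 0 through a median of 144.7 to 2532 FPKM, and cells labelled KO from 0 through a median of 0 to 1044 FPKM. Socs3 was present in 54 of 85 WT cells (63.5%, interval 52.4% to 73.7%), against 26 of 89 labelled KO (29.2%, 20.1% to 39.8%). In the cells that had it, the median level was 284.6 FPKM in WT and 168.6 FPKM in cells labelled KO. The difference lay between -4.53 and -1.91 in all 15 alternative ways of computing it. Of the other SOCS genes, Socs2 was at 1.51 (8.24% against 27% of cells), Cish at 0.28 and Socs1 at 0.03. Socs4, Socs5, Socs6 and Socs7 were in too few cells to be measured. Socs2 passed the filter through cells labelled KO alone, the group where it was higher. Cish and Socs1 lay near the median of all measured genes, 0.23. With 4 measured members, no direction of the family is drawn from these values.

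**Figure D2:**
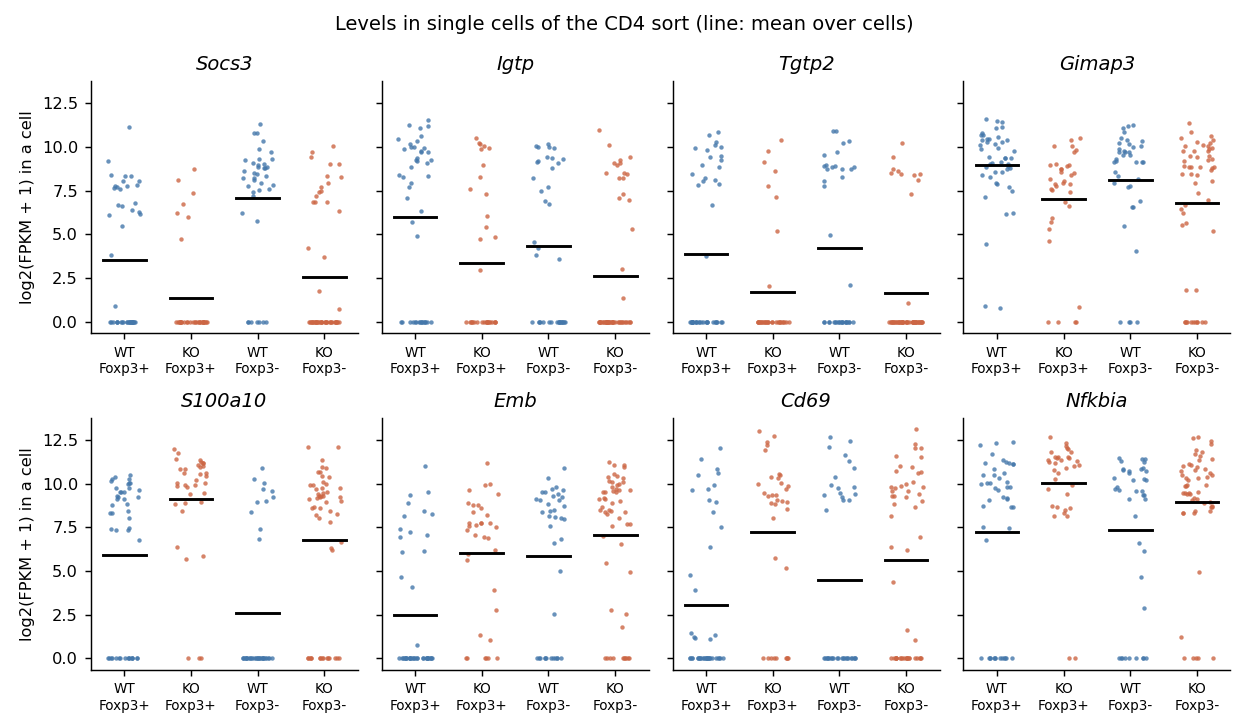
Level of 8 genes in each single cell of the CD4 sort (vertical axis, log2(FPKM + 1)), with WT cells in blue and cells labelled KO in red, split by Foxp3 detection, and a line at the mean over cells. Socs3, Igtp, Tgtp2 and Gimap3 have lower means in cells labelled KO in both strata, and S100a10, Emb, Cd69 and Nfkbia higher ones, while the ranges of single cells overlap for each gene.

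Interferon-induced GTPases, which attack the vacuoles of intracellular pathogens, were lower in cells labelled KO for each of the 15 measured members of 18, with a median of -0.92 and 7 at -1 or less. Over all measured genes, 0.983% were at -1 or less and the median was 0.23. Igtp, an immunity-related GTPase, ran from 0 through a median of 120.1 to 2993 FPKM in WT cells and from 0 through 0 to 1974 FPKM in cells labelled KO. Of the WT cells 60% had it (48.8% to 70.5%), against 37.1% of those labelled KO (27.1% to 48%), a difference of -2.33. Tgtp2, a T cell specific GTPase, was present in 45.9% (35% to 57%) and 21.3% (13.4% to 31.3%) at mean levels of 303.997 and 91.1 FPKM, a difference of -2.35. Its near-identical copy Tgtp1 was at -1.0, and reads shared by the 2 copies may be divided between them in the counting. Iigp1 was at -1.79 (28.2% against 7.87%), Gbp4 at -1.65 (48.2% against 28.1%) and Gbp6 at -1.29. Irgm1 (-1.03) and Irgm2 (-0.92), named here after their values were seen because of their promoters, lay near the list median. Gbp2, Gbp8 and Gbp9 lay between -0.15 and -0.11. Of the 15 members, 3 passed the filter through 1 group alone, and over all 18 in the table the median was -0.64.

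Counted cell by cell, a WT cell had a median of 6 of the 15 GTPase genes (quartiles 2 to 8, highest 14) and a cell labelled KO had 4 (2 to 6, highest 12). The share of cells with more than 8 was 24.7% in WT (16% to 35.3%) and 7.87% in the KO group (3.22% to 15.5%). More than 1 was found in 91.8% and 85.4%, so most cells of both groups had some. The groups differed more in the share of cells with many of these genes. Of WT cells with Socs3, 74.1% had 3 or more GTPase genes (60.3% to 85.0%), and of those without it 74.2% (55.4% to 88.1%). In cells labelled KO the shares were 88.5% with Socs3 (69.8% to 97.6%) and 61.9% without (48.8% to 73.9%).

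**Figure D3:**
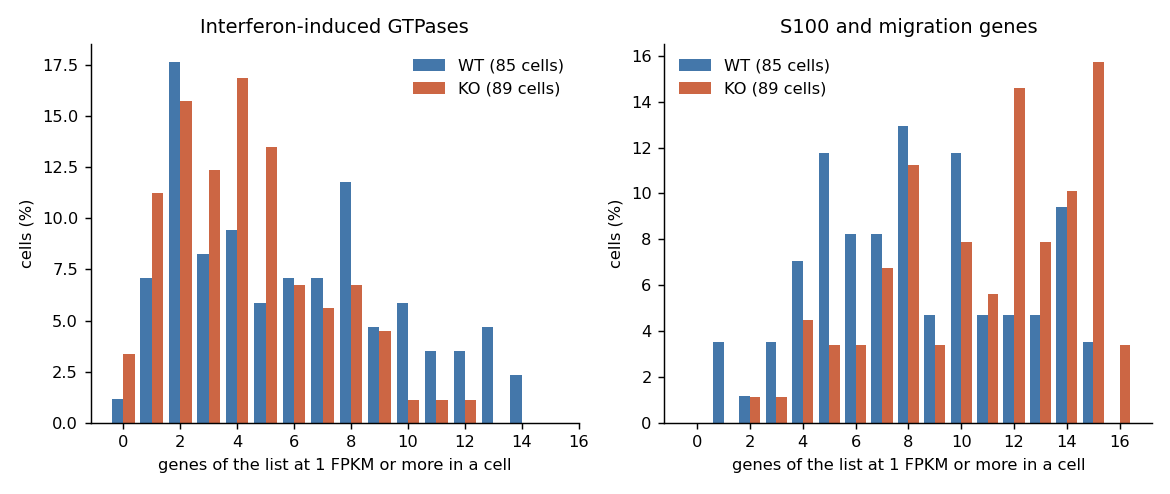
Percent of cells (vertical axis) with each number of genes at 1 FPKM or above (horizontal axis), for 15 interferon-induced GTPases (left) and 16 S100 and migration genes (right), in 85 WT cells (blue) and 89 cells labelled KO (red). WT cells reach higher counts of GTPases (median 6 against 4), and cells labelled KO higher counts of S100 and migration genes (median 12 against 8).

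Other interferon-linked genes were nearer 0 than the GTPases. Of 20 measured antiviral genes of 39, 12 were lower and 8 higher, none passed 1 in either direction, and the median was -0.15. Eif2ak2, the double-stranded RNA sensor kinase, was at -0.49, Irf7 at -0.72 and Ifi27l2a at 0.46. The interferon regulatory factors had a median of -0.57 with 5 of 6 measured members lower, among them Irf1 at -0.70 and Irf9 at -0.64, while Irf4 was at 0.48. Genes of MHC class I presentation had a median of -0.07, with 12 of 18 lower. There Nlrc5, their transactivator, was at -0.83 and the immunoproteasome subunit Psmb8 at 0.77. Ly6a, an interferon-inducible surface antigen, was at -1.18 (69.4% against 61.8% of cells) and Serpina3g, a protease inhibitor, at -1.92 (32.9% against 13.5%). They were the 2 lower genes of the Ly6 and serpin list, whose other 4 measured members were higher, at most by 0.18, and whose median was 0.08. Of 12 measured genes linked to interleukin-27 signalling, 7 were lower and 5 higher, with a median of -0.09 and Ikzf3 (1.20) and Icos (1.15) at the upper end. Il10 was detected in 12.9% and 12.4% of WT and KO cells.

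GIMAP genes encode GTPases of lymphocytes that act on their survival and lie in 1 cluster. Of 8 measured members, 7 were lower and 4 were at -1 or less, with a median of -0.83, while 0.983% of all measured genes were at -1 or less. Gimap3 was detected in most cells of both groups (92.9% and 82%) and ran from 0 through a median of 639.1 to 3069 FPKM in WT cells and from 0 through 334.8 to 2638 FPKM in cells labelled KO, a difference of -1.69. Gimap4 was at -1.48 (mean 1015 against 602.9 FPKM), Gimap7 at -1.20 and Gimap6 at -1.05, while Gimap9 was at 0.07. Here the level where detected was lower along with the share: for Gimap3 its median was 666.5 FPKM in WT cells and 444.8 FPKM in cells labelled KO. The share of cells with more than 4 of the 8 genes was 68.2% in WT (57.2% to 77.9%) and 55.1% in the KO group (44.1% to 65.6%).

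Receptors and lineage genes of CD4 cells went both ways. Co-inhibitory receptor genes, the brakes on T cell activation, had the median -0.42, with 7 of 11 measured members lower and 4 of the 11 measured through 1 group alone, and over all 18 in the table the median was -0.11. The sign of the list median turned in 3 of the 15 alternatives, each of which splits or weights cells by Foxp3, up to 0.45 in cells with Foxp3 over the same genes. Lag3, which binds MHC class II, was present in 31.8% and 21.3% of cells, a difference of -1.37. The co-stimulatory receptors had a median of 0.20, with Cd48 at 1.85 (40% against 60.7%), Cd28 at 1.21 (54.1% against 71.9%), Icos at 1.15 and Cd27 at -1.48 (49.4% against 36%). A median WT cell had 3 of the 11 co-inhibitory genes and a median cell labelled KO 4. For counts above 4 of these genes, the shares were 40% (WT) and 38.2% (KO group). Among cells with Foxp3 the median count was 6 for WT and 5 for the KO group, and among cells without it 2 for both. These counts thus had no common direction. The part played in them by the larger number of detected genes in cells labelled KO was not tested.

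Foxp3 was detected in 46 of 85 WT cells (54.1%, 43% to 65%), against 35 of 89 labelled KO (39.3%, 29.1% to 50.3%). In the cells that had it, its median level was 501.5 FPKM in WT cells and 648.9 FPKM in cells labelled KO, so its difference of -1.07 came with fewer cells and not with a lower level in them. Of 17 measured regulatory T cell genes, 9 were lower and 8 higher, and 4 passed the filter through 1 group alone. Ikzf2, which encodes Helios, was at -1.28, and Klrg1 (1.28), the chemokine receptor Ccr8 (1.22) and the interleukin-33 receptor Il1rl1 (1.21) were higher. For Il1rl1 the share of cells was 5.88% in WT (1.94% to 13.2%) and 28.1% in the KO group (19.1% to 38.6%). It thus passed the filter through cells labelled KO alone, the group where it was higher. Among helper factors, 4 of 19 genes were measured, 2 of them through 1 group alone. Rora, linked to the Th17 and tissue programmes, was at 2.12 (27.1% against 49.4%), Gata3 of the Th2 programme at 1.40 (42.4% against 61.8%), Cd40lg at 1.16 and Tbx21, which encodes T-bet, at -0.60. Nkg7, a cytotoxic granule gene, was at -1.54, with mean levels of 1020 and 331.7 FPKM.

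S100 proteins and genes of effector-cell migration were the list with the highest median, 1.34. Of 16 measured members of 18, 15 were higher in cells labelled KO and 11 were at 1 or more, against 9.91% of all measured genes. With cells weighted by ranges of detected genes the median was 0.75, and from the log2 of mean FPKM it was 0.50. S100a10, which encodes a partner of annexin A2 (chr3:93555117-93564645), had the highest difference of all, 3.30. WT cells ran from 0 through a median of 0 to 1927 FPKM, and cells labelled KO from 0 through 633.1 to 4387 FPKM. WT cells had it in 48.2% of cases (37.3% to 59.3%) and those labelled KO in 79.8% (69.9% to 87.6%). Emb, which encodes embigin, was at 2.61 (49.4% against 82%), S100a6 at 2.53 (29.4% against 57.3%), the LIM protein gene Crip1 at 2.50 (50.6% against 73%) and Vim, which encodes vimentin, at 2.08. For Emb the median level where detected was 343.2 FPKM in WT cells and 364.3 FPKM in cells labelled KO, so the groups differed in the share of cells far more than in that level. The share of cells with more than 8 of the 16 genes was 43.5% in WT (32.8% to 54.7%) and 68.5% in the KO group (57.8% to 78%). Of WT cells with S100a10, 73.2% also had Foxp3 (57.1% to 85.8%), against 45.1% of cells labelled KO with it (33.2% to 57.3%). Among cells without S100a10 the shares were 36.4% in WT (22.4% to 52.2%) and 16.7% in the KO group (3.58% to 41.4%). Foxp3 was thus more frequent in cells with S100a10 in both groups.

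Genes of tissue residency and homing had the median 0.83, with each of the 17 measured members of 20 higher and 8 at 1 or more. Of all measured genes, 66.1% were higher and 9.91% at 1 or more. Of the 17 members, 2 passed the filter through 1 group alone, and over all 20 in the table the median was 0.67. Rgs16, which was not measured, was at -0.39. Cd69, which holds T cells in tissue by opposing the receptor S1PR1, ran from 0 through a median of 0 to 6417 FPKM in WT cells and from 0 through 465.9 to 8884 FPKM in cells labelled KO. It was present in 43.5% (32.8% to 54.7%) and 66.3% (55.5% to 76%) of cells, a difference of 2.55. Itgb7, the integrin beta 7 chain, was at 2.39 (52.9% against 77.5%), Rgs1, which dampens chemokine receptor signals, at 2.31 (60% against 75.3%), Cxcr6 at 1.62 and Itgb2 at 1.38. S1pr1, which encodes the receptor that Cd69 opposes, is also in this list and was itself higher, at 0.83. The list thus does not describe retention alone. With cells weighted by ranges of detected genes the list median was 0.51.

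Genes of T cell receptor signalling and of the early response to it were also higher on balance. Of 22 measured genes of the receptor complex and its proximal signalling, 18 were higher and 6 were at 1 or more (median 0.51). Of all measured genes, 66.1% were higher and 9.91% at 1 or more. The median level of the list was 4.41 in WT cells and 5.33 in cells labelled KO. Among the 966 genes with the highest level, from 2.67 up, 26% were at 1 or more and the median difference was 0.55. The list was thus close to genes of like level. From the log2 of mean FPKM the list median was 0.15. Lat, the adaptor that ZAP-70 phosphorylates, was at 2.28 (63.5% against 88.8%), Zap70 at 2.20 (41.2% against 70.8%) and Ubash3a at 1.85. Cd3e, a chain of the receptor complex, was at -0.06. For Zap70 the median level where detected was 372.7 FPKM in WT cells and 332.8 FPKM in cells labelled KO. The NF-kB list had a median of 0.60 with 11 of 14 higher, against 66.1% of all measured genes, and 2 of the 14 passed the filter through 1 group alone. Its highest members were Nfkbid at 2.31, Nfkbia at 2.11, Nfkbiz at 1.80 and Tnfaip3 at 1.53. Among these, Nfkbia and Tnfaip3 encode inhibitors of the pathway. Nfkbia, whose promoter is printed above, ran from 0 through a median of 753.9 to 5362 FPKM in WT cells and from 0 through 1271 to 6596 FPKM in cells labelled KO, and was present in 74.1% (63.5% to 83%) and 92.1% (84.5% to 96.8%). Of 18 measured immediate early genes, 15 were higher and 8 at 1 or more (median 0.74), among them Ier2 at 2.51 (45.9% against 74.2%), the nuclear receptor gene Nr4a1 at 2.26 (48.2% against 69.7%), the phosphatase gene Dusp2 at 2.18 (9.41% against 34.8%) and Egr1 at 1.70. Dusp2 passed the filter through cells labelled KO alone, the group where it was higher. A median WT cell had 9 of the 18 and a median cell labelled KO 12.

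The NF-kB motif was about as frequent in the promoters of these higher genes as elsewhere: it was in 8.24% of promoters of genes at 1 or more, against 9.22% of promoters of all measured genes. A GAS match was in 7.10% of them, and in 27.3% of the 33 promoters of genes at -1 or less (9 promoters), against 6.21% of promoters of all measured genes. These 33 promoters cover 28 of the 38 genes at -1 or less, which were chosen by this same difference. They include Socs3, Igtp and the near-identical Tgtp1 and Tgtp2, whose GAS matches are printed above. The share is therefore not separate support for those matches. No test was made of these shares.

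Lists of housekeeping genes had medians above 0 in cells labelled KO. Of all measured genes, 66.1% were above 0 and 9.91% at 1 or more. Of the 966 genes with the highest level, 26% were at 1 or more, and their median was 0.55. Actin cytoskeleton genes had a median of 0.73 with 22 of 23 higher, among them the myosin light chain genes Myl12b at 1.98 and Myl6 at 1.58. Cytosolic ribosomal protein genes had a median of 0.76 with 39 of 40 higher and 16 at 1 or more, among them Rpl26 at 1.86 and Rps2 at 1.69. Genes of translation had a median of 0.52 (Eif3f 1.97), the constitutive proteasome 0.55 (Psmb3 1.86), the nuclear-encoded respiratory chain 0.56 (Cox4i1 1.28, Ndufa7 -1.20), glycolysis 0.46 (Pgam1 1.19, Pkm -1.03) and the cell cycle 0.38 (H2afz 1.68, Mcm7 -0.78). For the cell cycle 13 of 30 genes were measured, and over all 30 the median was 0.07. Heat shock genes had a median of 0.23, equal to that of all measured genes. In cells with at least 2000 genes, 25 WT and 37 labelled KO, the median was 0.13 for ribosomal protein genes, 0.25 for actin genes, -0.60 for the proteasome, -0.53 for the respiratory chain, -0.51 for glycolysis and -0.63 for the cell cycle. In the same cells the GTPases had a median of -1.93 and the GIMAP genes of -2.29.

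**Figure D4:**
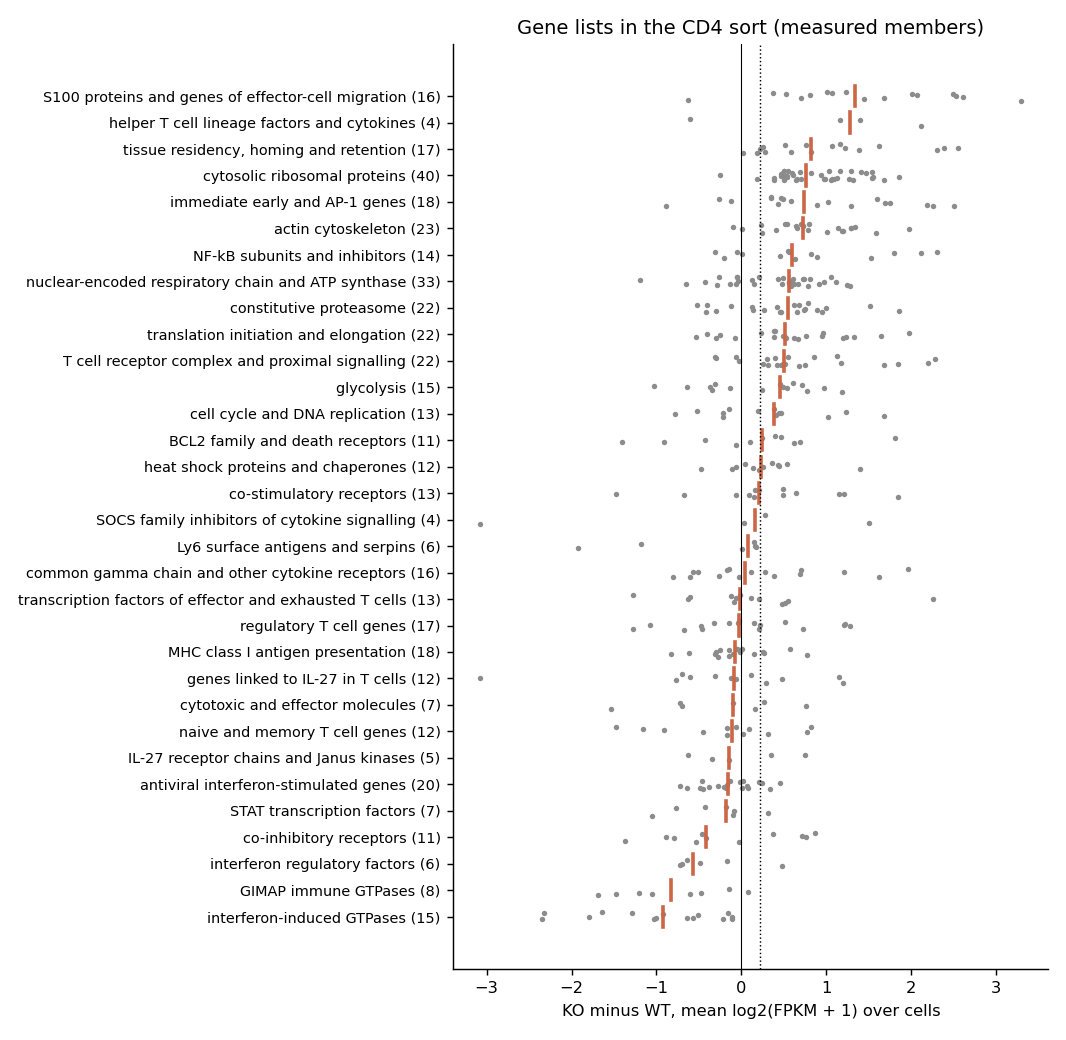
Difference between cells labelled KO and WT cells (horizontal axis, mean log2(FPKM + 1)) for the measured members of 32 gene lists, each point 1 gene and each red bar the list median, with the number of measured members in brackets. The dotted line is the median of all measured genes, 0.23. Interferon-induced GTPases (-0.92) and GIMAP genes (-0.83) lie at one end and S100 and migration genes (1.34) at the other.

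The 15 lowest ranked genes also held Odc1 of polyamine synthesis (-1.38), the collagen hydroxylase gene P4ha1 (-1.36, 32.9% against 12.4% of cells) and AW112010 (-1.35). The 15 highest also held the ATP synthase subunit Atp5d (2.16, 51.8% against 74.2%) and the autophagy gene Becn1 (2.14, 23.5% against 50.6%).

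Since cells with Foxp3 were fewer among those labelled KO, the differences were computed again within each stratum. Cells without detected Foxp3 may still have held it below detection. The strata had 46 WT and 35 labelled KO cells with Foxp3 (median 1883.5 and 2152 genes detected) and 39 and 54 without it (1547 and 1746.5 genes). Among cells with Foxp3, 4894 genes were measured, 21.5% of them were at 1 or more, 2.31% were at -1 or less, and the median was 0.42. Among cells without it, 3426 were measured, 13.5% were at 1 or more, 3.15% at -1 or less, and the median was 0.21. The differences between the strata below were not tested.

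Socs3 was lower in both strata, and in WT cells it was found more often outside the Foxp3 cells. Without Foxp3 it was in 32 of 39 WT cells and 19 of 54 labelled KO (82.1% against 35.2%, a difference of -4.53). With Foxp3 it was in 22 of 46 and 7 of 35 (47.8% against 20%, -2.17). The GTPases had medians of -1.11 with Foxp3, where 9 of 15 measured genes were at -1 or less, and -0.48 without it, where 4 of 12 were. Igtp was at -2.64 and -1.71 in these strata and Tgtp2 at -2.12 and -2.57. The GIMAP medians were -1.37 and -0.45, with Gimap7 at -2.75 and 0.71. Stat3 was at 0.25 with Foxp3 and -1.31 without it.

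The regulatory T cell list had a median of 0.69 in cells with Foxp3, where 15 of 18 measured members were higher. Of all genes measured in these cells, 72.4% were higher, and the list includes Foxp3 itself, which defines the stratum. The list of cytotoxic and effector molecules was divided there, with 3 higher and 3 lower. Some single genes, named here after their values were seen, were low in cells with Foxp3. Nkg7 was at -3.23 with Foxp3 (54.3% of WT cells against 28.6%) and 0.32 without it (25.6% against 33.3%). Serpina3g was at -3.02 (52.2% against 22.9%) and -0.31, where too few cells had it for it to count as measured, the chemokine gene Ccl5 at -2.33 (56.5% against 40%) and 1.30, and Ltb at -1.77 and 0.17. Odc1 had the other pattern, at 0.11 with Foxp3 and -1.85 without it. For each of these genes the larger negative difference lay in 1 stratum.

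S100 and migration genes had medians of 1.94 with Foxp3 and 1.49 without it, with 13 of 17 and 13 of 16 measured genes at 1 or more. S100a10 was at 3.18 (65.2% against 91.4%) and 4.19 (28.2% against 72.2%). S100a6 was at 4.36 (37% against 85.7%) and 1.78. Cd69 was at 4.19 (43.5% against 74.3%) and 1.13 (43.6% against 61.1%), Emb at 3.54 and 1.18, Nr4a1 at 3.15 and 1.32, and Zap70 at 1.29 and 3.06. Klrg1, a receptor of differentiated effector and regulatory cells, was at 3.45 with Foxp3 (43.5% against 71.4%), and Gata3 at 2.90 with Foxp3 (45.7% against 82.9%) and 0.45 without it. H2afz, a histone variant gene, was at 4.55 with Foxp3 (45.7% against 85.7%) and -0.57 without it (69.2% against 61.1%). Cxcr6 was at -0.67 with Foxp3 and 3.27 without it (17.9% against 50%). Ribosomal protein genes had medians of 1.28 and 0.24, immediate early genes of 1.07 and 0.22, and NF-kB genes of 0.96 and 0.52. With cells weighted to equal Foxp3 shares in both groups, the GTPase median was -0.84, that of S100 and migration genes 1.72, and 0.492% of genes were at -1 or less.

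**Figure D5:**
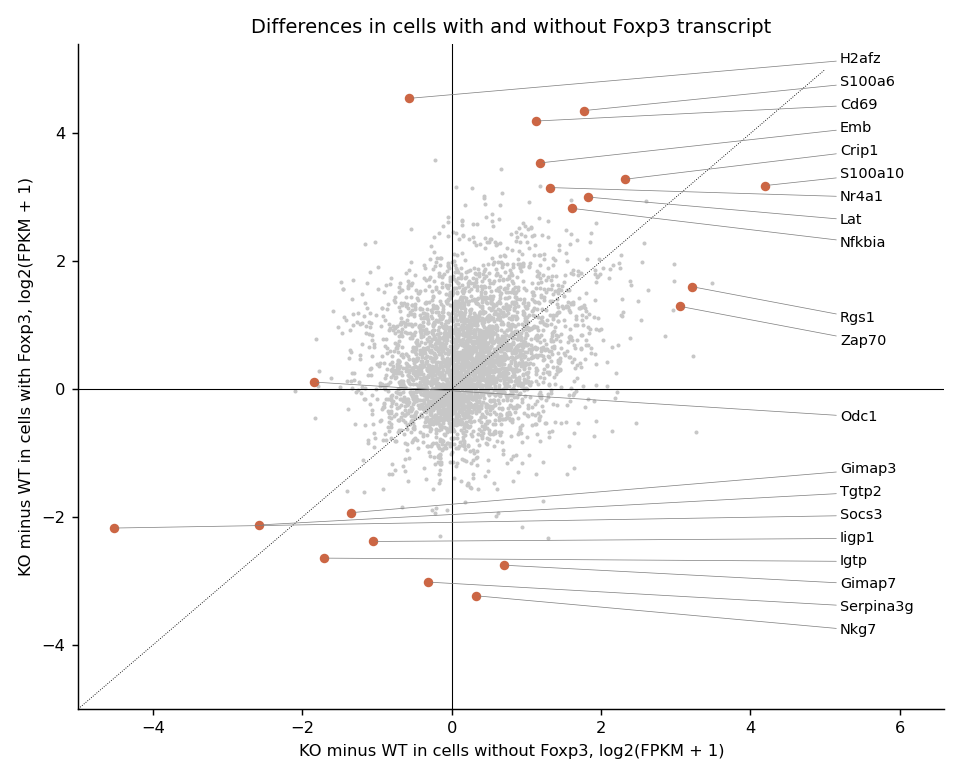
Difference between cells labelled KO and WT cells (mean log2(FPKM + 1)) for each gene in cells with Foxp3 (vertical axis) and in cells without it (horizontal axis), with 20 genes named and a dotted line where both are equal. Igtp, Tgtp2 and Socs3 are below 0 on both axes, S100a10 is above 0 on both (3.18 and 4.19), and Nkg7 (-3.23 and 0.32) and H2afz (4.55 and -0.57) differ in sign between the axes.

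In the CD8 sort, 86 cells labelled KO and 90 WT cells, the balance of all genes lay the other way: of 4686 measured genes 0.555% were at 1 or more and 13.3% at -1 or less, with a median of -0.40. The GTPases were lower there as well (median -1.03, all 13 measured members lower), with Igtp at -0.99, Tgtp2 at -2.15 and Gbp4 at -1.11. Of all genes measured in that sort, only 21.3% were above 0, so most genes were lower there. Iigp1 was in too few CD8 cells to be measured. Socs3 was at -0.28 in the CD8 sort against -3.07 in the CD4 sort. S100 and migration genes had a median of -0.58 in the CD8 sort, with S100a10 at -1.0, and ribosomal protein genes one of -0.34. Residency genes were at 0.12, immediate early genes at 0.18 and GIMAP genes at -0.49. The median number of detected genes was 2148 in WT and 1955 in cells labelled KO of the CD8 sort, the reverse order of the CD4 sort. The differences between the sorts were not tested.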

How the data were processed

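Single tumour T cells had been profiled by Smart-seq2, a full-length cDNA method, with 21 amplification cycles per the labels' protocols. The authors deposited 1 table of FPKM values, 1 row a gene. The submitters' processing notes name Bowtie, RSEM, TMM scaling and the mm10 genome. Tool versions are not given in the sources used here. Of 375 columns, 371 were single cells and 4 were not used here. Entries with a repeated symbol (4) were left out, which left 23362 genes. Groups came from the cells' names. Each group is 1 sample, so no p-value, standard error or test was computed. Levels are means of log2(FPKM + 1), with a pseudocount of 1 FPKM. Shares carry exact Clopper-Pearson 95% intervals. The difference script was tested on simulated data in which only the level where detected was changed, with the same detection in both groups. It was thus not tested on a difference in the share of cells with a gene. The highest correlation between any pair of CD4 cells was 0.641, and no doublet caller was run.

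The members and lists were chosen with earlier results of these data known. There were 46 lists, of which 32 covered functions and 10 other cell types. Of the members, 5 were matched by an older symbol, and the list of mitochondrially encoded genes had no member in the table. Named genes were Il27ra, the receptor, STAT and SOCS lists, the 15 highest and 15 lowest differences without antigen receptor segments, predicted genes and pseudogenes, and up to 5 members with the largest differences in each function list. Some genes this rule names are not reported here. Cd3e, Cd4, Il10, Tgtp1, Irgm1, Irgm2, Gbp2, Gbp8, Gbp9 and Gimap9 were named after their values were seen. Genes with near-identical copies, such as Tgtp1 and Tgtp2, Bcl2a1b and Bcl2a1d, or ribosomal protein genes with pseudogenes, are uncertain where the counting could split shared reads. Python 3.11.15, numpy 2.4.6, pandas 2.3.3, scipy 1.17.1 and matplotlib 3.10.9 were used.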

Additional observations from a re-analysis of the deposited data

Results flagged for a closer look

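For 14 of the named genes (8.92%), the difference between cells labelled KO and WT cells was at 1 or more in the CD4 sort and at -1 or less in the CD8 sort. The same held for 69 of all 3864 genes measured in the CD4 sort (1.79%), and the named genes were chosen in part for large differences. Among genes at 1 or more in the CD4 sort, the shares were 20.9% of the named and 18.02% of all. These opposite signs drew attention to them, and the difference between the sorts was not tested. In each pair below the CD4 value comes first. 2 belong to the S100 and migration list, S100a10 (3.30 and -1.0) and Vim (2.08 and -1.95). Of the actin and myosin genes, these were Arpc5 (1.29 and -1.29), Myl6 (1.58 and -1.23) and Myl12b (1.98 and -1.09), and of the integrin genes Itgb2 (1.38 and -1.35). Translation factor genes were Eif3e (1.24 and -1.44) and Eif4a1 (1.20 and -1.93), and proteasome genes Psma7 (1.0 and -1.25) and Psmd4 (1.52 and -1.25). The respiratory chain gave Cox4i1 (1.28 and -1.38) and Cox7c (1.24 and -1.30), glycolysis Pgam1 (1.19 and -2.14), and the BCL2 family Bcl2a1b (1.81 and -1.25). The number of genes detected in a median cell was higher in cells labelled KO in the CD4 sort (1868 against 1661) and lower in the CD8 sort (1955 against 2148), and its part in these values was not tested. In CD4 cells with at least 2000 genes, the sign was negative for Arpc5, Cox4i1, Cox7c, Eif3e and Itgb2.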

How the results depend on the processing

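The limits of these data are 1 pool a genotype, cells labelled KO with more detected genes, and no read counts, so a gene in few cells has a difference set largely by how often it was detected. The alternatives chosen after seeing the data are equal Foxp3 weights, cells with at most 4000 genes and cells with Foxp3 alone. The values below replace 9.91% of genes at 1 or more, 0.983% at -1 or less, a median of 0.23 over all genes, and list medians of -0.92 (interferon-induced GTPases), -0.83 (GIMAP), 1.34 (S100 and migration), 0.83 (residency), 0.60 (NF-kB), 0.74 (immediate early), 0.73 (actin) and 0.76 (ribosomal protein). The sign of each of these 8 list medians was the same in all 15 alternatives. Shares and medians named here stayed within 1.5 times without a filter on cells, in cells with Cd4 and without Cd8, without cells carrying other cells' markers and in cells with at most 4000 genes. Over the named genes, 1677 of 2355 differences stayed within 1.5 times, 660 moved further and 18 changed sign from at least 1 in size. The cause of each shift was not tested.

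With a pseudocount of 0.1 20.01% and 3.08% of genes were past these limits, the median of all genes 0.35, GTPases -1.45, NF-kB 0.90, immediate early 1.12 and actin 1.11. With a pseudocount of 10 they were 2.10% and 0.233%, 0.11 over all genes, GTPases -0.51, S100 0.89, NF-kB 0.34, immediate early 0.45 and actin 0.48. With no filter on genes the shares were 2.76% and 0.287%, the median of all genes 0.018 and immediate early 0.47, and with genes in 10% of cells 5.81%, 0.603%, 0.14 and 0.48. With each cell scaled to an equal total, 1.501% of genes were at -1 or less, and with equal Foxp3 weights 0.492%, with Foxp3 itself at 0.22. With cells weighted by ranges of detected genes the shares were 3.91% and 2.56%, the median of all genes 0.0074, S100 0.75, residency 0.51, NF-kB 0.39, actin 0.45 and ribosomal 0.40. With the log2 of mean FPKM, 4.68% of genes were at -1 or less, the median of all genes was 0.10, S100 0.50, residency 0.36, actin 0.44, ribosomal 0.30 and Pkm 0.10.

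In cells with at least 2000 genes, 10.97% of genes were at -1 or less, the median of all genes was -0.048, GTPases -1.93, GIMAP -2.29, S100 0.69, NF-kB 1.30, actin 0.25 and ribosomal 0.13, and signs turned for Arpc5 (-0.026), Cd48 (-0.28), Cox4i1 (-0.19), Cox7c (-0.53), Cox8a (-0.54), Eef1b2 (-0.33), Eif3e (-0.50) and Itgb2 (-0.53). In cells with Foxp3, over the same 3864 genes, the shares were 23.7% and 2.46%, the median of all genes 0.39, GIMAP -1.37, NF-kB 1.04, immediate early 1.28, actin 1.16 and ribosomal 1.28, with Cxcr6 at -0.67, Foxp3 at 0.46 and Odc1 at 0.11. In cells without Foxp3, 2.46% of genes were at -1 or less, GIMAP -0.45, immediate early 0.22 and ribosomal 0.24, with Foxp3 at 0.014, Gimap7 at 0.71, H2afz at -0.57, Ltb at 0.17 and Nkg7 at 0.32. No paired analysis was possible because each group is 1 pool and the result comes from no test.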
